A study of Mus musculus with 6 samples.

Results

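Myeloid C-type lectin receptors are surface proteins by which monocytes, macrophages, dendritic cells and neutrophils sense sugars and lipids of microbes and products of damaged cells. The group described here holds 9 genes, taken by symbol from the deposited count table: Clec4n, Clec4d, Clec4e, Clec7a, Clec5a, Clec4a2, Clec12a, Clec4a1 and Clec4a3. All 9 had a row among the 24047 gene rows, and all 9 were among the 10626 genes that passed the filter on low counts. They were chosen by their levels and fold changes in this same comparison, kidney against spleen and marrow, so those values are a description and carry no test.

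RNA was sequenced from FACS-sorted monocytes of wild-type mice, strain given as C5/Bl6, aged 8 to 10 weeks, all with nephrotoxic nephritis, an antibody-driven injury of the glomerulus, and all killed on day 13. The 3 kidney libraries (replicates 7, 8 and 22, double_pos in the labels) are set against 3 libraries of spleen and bone marrow (replicates 2, 24 and 26, double in the labels). No marker is named for either gate, the enrichment before the sort is described for kidney cells only, and no library came from a healthy mouse, so effects of tissue, handling and disease cannot be told apart. The series used 10 mice, and nothing says whether a library is 1 animal or a pool, so a p-value here reflects no more than how these libraries vary, which may be technical.

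These receptors signal in opposite ways. Activating receptors carry an ITAM-like tyrosine motif in their own tail or borrow an ITAM from the adaptors FcR gamma (Fcer1g) or DAP12 (Tyrobp), and recruit the kinase SYK, which signals through CARD9, BCL10 and MALT1 to NF-kB. Inhibitory receptors carry an ITIM in the tail that recruits the phosphatases SHP-1 (Ptpn6) and SHP-2 (Ptpn11). Among the 9, Dectin-2 (Clec4n), MCL (Clec4d), Mincle (Clec4e), Dectin-1 (Clec7a) and MDL-1 (Clec5a) are activating, 5 genes in all. DCIR1 (Clec4a2) and MICL (Clec12a) are the 2 with an ITIM. Clec4a1 and Clec4a3 encode close relatives of DCIR1 and were not put in either class. The classes are textbook knowledge and were not checked in protein sequence.

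The genes sit on chromosome 6. In the RefSeq gene order of GRCm38.p6, 6 of them lie within the Dectin-2 cluster, where Clec4n, Clec4d and Clec4e are consecutive protein-coding genes. Clec7a and Clec12a lie together in the Dectin-1 cluster, and Clec5a lies apart. Clec4d and Clec4e are neighbours with unlike fold changes, so the 250 bases before their transcription starts are shown, 5' to 3', with every GAGGAA or its reverse complement, the core of the site for the myeloid factor PU.1, in capitals. The Clec4d stretch is chr6:123261857-123262106 on the plus strand and the Clec4e stretch chr6:123289872-123290121 on the minus strand, both from RefSeq, build GRCm38.p6.
Clec4d: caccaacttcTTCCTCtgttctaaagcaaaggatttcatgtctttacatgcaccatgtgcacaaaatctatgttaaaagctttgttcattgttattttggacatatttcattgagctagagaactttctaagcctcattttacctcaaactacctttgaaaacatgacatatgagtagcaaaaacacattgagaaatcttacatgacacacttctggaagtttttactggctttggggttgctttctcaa
Clec4e: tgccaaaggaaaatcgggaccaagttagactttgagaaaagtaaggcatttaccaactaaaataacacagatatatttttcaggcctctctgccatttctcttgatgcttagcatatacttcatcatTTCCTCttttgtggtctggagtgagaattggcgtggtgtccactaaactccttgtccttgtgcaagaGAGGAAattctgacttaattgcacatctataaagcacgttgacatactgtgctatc
Clec4d held 1 match and Clec4e 2. Over the 8 receptor genes with a promoter in that table (Clec4n had no entry), 6 held GAGGAA on either strand, against 23.1% of 27025 promoters of the same length. The C/EBP letters TTNNGNAA were found in 5 of 8, against 36.9% of all. The AP-1 letters TGANTCA were found in 1 of 8 (Clec12a), against 6.87% of all, and the NF-kB motif in 0 of 8, against 1.4% of all. No PU.1 match overlapped a C/EBP match in these promoters, and a match of letters does not show binding.

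Total counts ran from 3492391 in kidney replicate 22 to 7938223 in kidney replicate 7, and from 7311991 to 9727489 in spleen and marrow, and every receptor gene had at least 120 counts in every library. Levels below are CPM, counts divided by the TMM-adjusted library size and put on the usual CPM scale, unless FPKM is named. The monocyte markers Ly6c2, Ccr2, Csf1r, Cx3cr1, Itgam and Cd14 were detected in all 6 libraries, but did not move together. Ly6c2, the marker of classical monocytes, had 317 to 810 CPM in kidney, against 5020 to 5860 CPM in spleen and marrow (edgeR adjusted p = 0.00149). Csf1r, Cx3cr1, Itgam and Cd14 were each called higher in kidney, with log2 fold changes of 1.25 to 2.45, and Ccr2 stood at 0.45 (edgeR adjusted p = 0.141). Kidney libraries carried macrophage markers (C1qa, C1qb, C1qc, Mertk, Cd63 and Apoe, all 6 detected in each) at a summed 20439 to 33789 CPM, against 1491 to 3279 CPM in spleen and marrow, where Mertk was at 0 in replicate 26. Apoe made up most of the sum in every library and had a log2 fold change of 3.1. C1qa, C1qb, C1qc and Mertk had log2 fold changes of 8.18, 7.22, 7.47 and 6.63, and Cd63 had 1.92. C1qa was at 2.33 to 3.22 CPM in spleen and marrow. The 11 neutrophil markers with a row were detected in every library and summed to 1385, 4637 and 45654 CPM in kidney replicates 7, 8 and 22, against 23147 to 30758 CPM in spleen and marrow. Within kidney, S100a8, S100a9, Cxcr2, Retnlg, Mmp9, Camp, Ngp, Ltf and Lcn2 each rose from replicate 7 to 8 to 22. Csf3r and Mmp8 did not follow this order. Csf3r had 22.04, 19.46 and 9.69 CPM in kidney replicates 7, 8 and 22, and Mmp8 had 155, 79.5 and 139 CPM. Granule precursor genes summed to 33.5 to 512 CPM in kidney, against 2404 to 4378 CPM in spleen and marrow, and kidney tubule markers to 36.9 to 151 CPM in kidney, against 0 to 0.322 CPM in spleen and marrow. Markers of B cells summed to 25.3 to 47.3 CPM and those of T or NK cells to 1.76 to 9.53 CPM over the 6 libraries. Most of these lists move with the groups or with 1 library, and their part in the receptor values was not tested. In such bulk samples fewer cells of a type and less RNA per cell cannot be told apart.

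Of the 5 activating receptors, Clec4n and Clec4d stood 11.9-fold and 4.22-fold higher in kidney, and the other 3 lay within a log2 fold change of 0.55. Dectin-2, the product of Clec4n, binds fungal mannans and signals through FcR gamma. Clec4n had 222, 307 and 356 CPM in kidney replicates 7, 8 and 22, against 25.95, 22.7 and 25.8 CPM in spleen and marrow replicates 2, 24 and 26. Every kidney library was above every spleen and marrow library, with a wide gap. On the log2 scale Clec4n was higher in kidney by 3.57 ± 0.21 (SE), an 11.9-fold difference, and by 3.39 to 3.75 when any 1 library was left out.

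MCL, the product of Clec4d, binds mycobacterial cord factor and pairs with Mincle at the cell surface. Clec4d had 229, 145 and 248 CPM in kidney replicates 7, 8 and 22, against 44.8, 50.9 and 51.8 CPM in spleen and marrow replicates 2, 24 and 26. Again the groups lay apart, with kidney replicate 8 the lowest of its group. Its log2 fold change was 2.08 ± 0.22 (SE), or 4.22-fold, with a range of 1.90 to 2.28 when any 1 library was left out. Neutrophils are known to carry MCL as well, and the part of the neutrophil transcripts given above in the Clec4d values was not tested.

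Mincle, the product of Clec4e, is the partner of MCL and senses cord factor and the nuclear protein SAP130 released by dying cells. Clec4e had 312, 288 and 254 CPM in kidney replicates 7, 8 and 22, against 304, 225 and 239 CPM in spleen and marrow replicates 2, 24 and 26. The ranges overlapped, and spleen and marrow replicate 2 was above kidney replicates 8 and 22. Its log2 fold change of 0.16 ± 0.16 (SE) was the smallest of the 9. Within a library, the FPKM ratio of Clec4d to Clec4e was 1.88 ± 0.654 in kidney and 0.496 ± 0.109 in spleen and marrow (SD, n = 3 each), a measure that library scaling does not touch.

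Dectin-1, the product of Clec7a, recognises fungal beta-glucan through an ITAM-like motif of its own. Clec7a had 221, 390 and 323 CPM in kidney replicates 7, 8 and 22, against 170, 226 and 242 CPM in spleen and marrow replicates 2, 24 and 26. Kidney replicate 7 fell inside the spleen and marrow range. Clec7a followed Clec4n and Clec4d in size of log2 fold change, at 0.55 ± 0.23 (SE), and ranged from 0.35 to 0.76 when any 1 library was left out. Kidney replicate 8, the highest in Clec7a, also held the most endothelial transcripts, with all 5 markers detected and a sum of 755 CPM against 11.7 to 19.7 CPM in the other kidney libraries and 4.38 to 9.99 CPM in spleen and marrow, where Cdh5 and Emcn were each at 0 in 2 libraries. Their part in the Clec7a value was not tested.

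MDL-1, the product of Clec5a, signals through DAP12. Clec5a had 119, 155 and 132 CPM in kidney replicates 7, 8 and 22, against 117, 88.4 and 104 CPM in spleen and marrow replicates 2, 24 and 26. The ranges stood apart by about 2 CPM only, between kidney replicate 7 and spleen and marrow replicate 2. For Clec5a the log2 fold change was 0.40 ± 0.17 (SE).

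**Figure D1:**
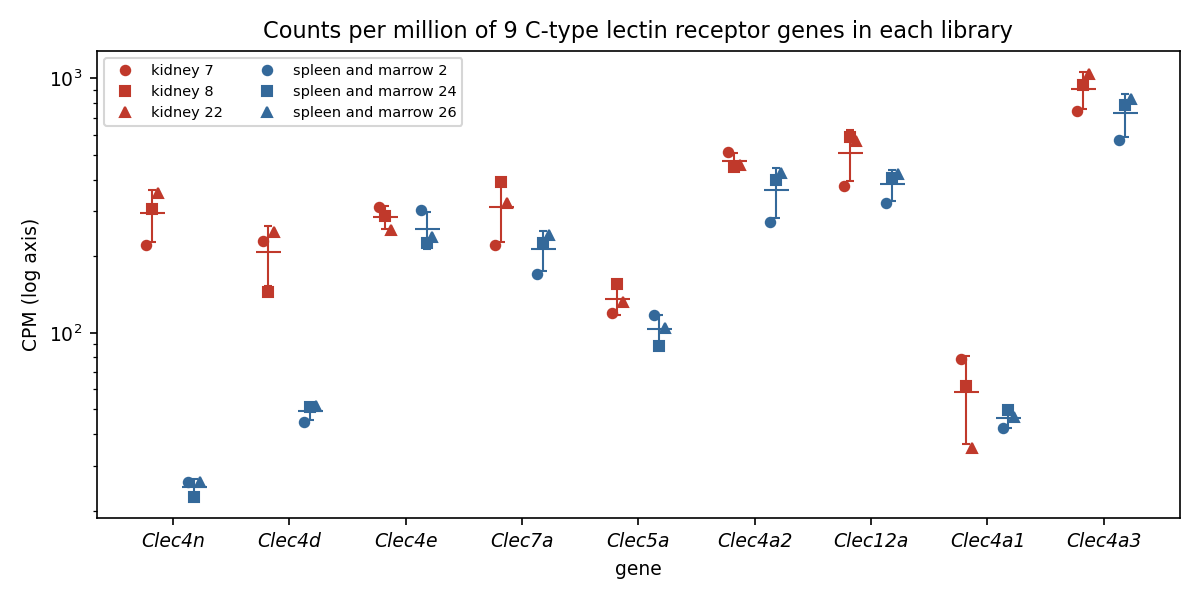
CPM (log axis) of the 9 receptor genes in each library, kidney in red left of spleen and marrow in blue, with marker shapes for replicates and bars for mean ± SD (n = 3 each). Clec4n and Clec4d show a gap between the groups, with kidney means of 295 and 208 CPM against 24.8 and 49.1 CPM in spleen and marrow, while the other 7 lie close together.

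The 2 receptors with an ITIM had log2 fold changes of 0.37 and 0.41. Clec4a2, which encodes DCIR1, had 513, 448 and 457 CPM in kidney replicates 7, 8 and 22, against 273, 397 and 425 CPM in spleen and marrow replicates 2, 24 and 26. Its ranges did not overlap, but kidney replicate 8 and spleen and marrow replicate 26 were close. For Clec4a2 the log2 fold change was 0.37 ± 0.18 (SE). MICL, which binds uric acid crystals and restrains neutrophils and monocytes, is encoded by Clec12a. Clec12a had 376, 590 and 566 CPM in kidney replicates 7, 8 and 22, against 323, 404 and 422 CPM in spleen and marrow replicates 2, 24 and 26, with kidney replicate 7 inside the spleen and marrow range. Clec12a had a log2 fold change of 0.41 ± 0.20 (SE).

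Clec4a3, the most abundant of the 9, had 742, 945 and 1037 CPM in kidney replicates 7, 8 and 22, against 570, 786 and 828 CPM in spleen and marrow replicates 2, 24 and 26. The ranges overlapped and the log2 fold change was 0.32 ± 0.19 (SE). Clec4a1 varied more within kidney than any other receptor gene, at 79.2, 61.7 and 35.2 CPM in replicates 7, 8 and 22, against 42.1, 49.7 and 46.5 CPM in spleen and marrow replicates 2, 24 and 26. Its coefficient of variation was 37.7% in kidney and 8.18% in spleen and marrow, and its log2 fold change was 0.36 ± 0.28 (SE). Kidney replicate 22, the lowest in Clec4a1, was also lowest in the summed dendritic cell markers, at 11.5 CPM against 68.9 and 64.8 CPM in kidney replicates 7 and 8 and 34.8 to 60.3 CPM in spleen and marrow. Of these 8 markers, 2 were detected in every kidney library and 8 in every spleen and marrow library. Zbtb46, Cd209a, Xcr1, Clec9a, Dpp4 and Ccr7 were at 0 in kidney replicate 22, the library of least depth, where 3 counts correspond to 0.881 CPM. Zbtb46, Clec9a and Ccr7 were also low in kidney replicate 7, at 0.119, 0.356 and 0 CPM. Most of the sum in kidney replicate 7 was Flt3, at 52.1 CPM, against 21.7 and 5.58 CPM in kidney replicates 8 and 22. Summed macrophage markers also fell within kidney, at 33789, 24664 and 20439 CPM in replicates 7, 8 and 22. Those of neutrophils, granule precursors, B cells and kidney tubule rose over the same replicates. The part of any of these cells in the Clec4a1 values was not tested.

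**Figure D2:**
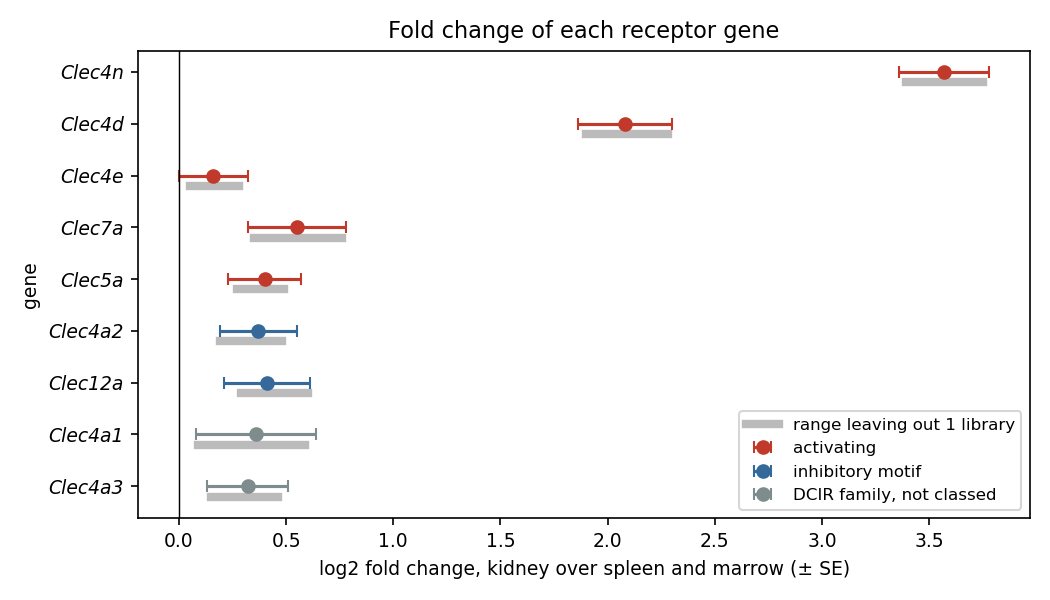
The log2 fold change of each receptor gene, kidney over spleen and marrow, with its SE, coloured by class, and in grey the range on leaving out any 1 library. Clec4n (3.57) and Clec4d (2.08) stand apart from the other 7, which lie between 0.16 and 0.55.

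All 9 genes had a log2 fold change above 0, with a median of 0.40, against a median of 0.05 over all 10626 genes tested. Of the 9, 2 (Clec4n and Clec4d) had an edgeR adjusted p under 0.05, where 7.83% of all genes tested were called higher in kidney, 5.9% lower and 13.7% in either direction. In CPM the groups did not overlap for 4 of the 9 (Clec4n, Clec4d, Clec5a and Clec4a2), all higher in kidney, where 19.2% of all genes tested were apart and higher, 18.8% apart and lower, and 37.9% apart in either direction. In FPKM the ranges of Clec5a and Clec4a2 overlapped, and those of Clec4n and Clec4d did not. The share of all genes that lay apart in FPKM was not computed. As the genes were chosen on this comparison, nothing is read from these counts. The median log2 fold change was 0.55 for the 5 activating genes, 0.39 for the 2 with an ITIM and 0.34 for Clec4a1 and Clec4a3, and the activating genes spanned both the smallest and the largest value of the 9.

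Levels of different genes were compared on the deposited FPKM, which are scaled for transcript length. Clec4a3 was first in both groups, at 353 ± 57.2 FPKM in kidney and 311 ± 54.0 FPKM in spleen and marrow (SD, n = 3 each), and its range touched no other. Clec4n was second in kidney, at 113 ± 19.7 FPKM, and ninth in spleen and marrow, at 10.8 ± 0.385 FPKM. In kidney, the ranges of neighbours in the order Clec4n, Clec4a2, Clec12a, Clec4d, Clec7a and Clec4e overlapped at every step, so the order of neighbours is not resolved. The lowest Clec4n value in kidney, 98.7 FPKM, was above the highest of Clec4d, Clec7a and Clec4e, at 90.5, 76.0 and 50.8 FPKM. Clec4a1 and Clec5a were lowest there, at 16.7 ± 7.36 and 14.8 ± 4.17 FPKM, with ranges that overlapped each other. In spleen and marrow, Clec4a2 and Clec12a followed Clec4a3 and overlapped each other, then Clec7a and Clec4e overlapped each other, then came Clec4d at 19.0 ± 1.84 FPKM, and Clec4a1, Clec5a and Clec4n were lowest with overlapping neighbours.

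The balance of classes within a library differed between the groups with Clec4n and Clec4d in the sum, and overlapped without them. The 5 activating genes gave 35.1%, 33.6% and 34.6% of the summed FPKM of the 9 genes in kidney replicates 7, 8 and 22, against 23.2%, 18.5% and 18.5% in spleen and marrow replicates 2, 24 and 26. Every kidney share was above every spleen and marrow share. The ratio of activating to ITIM-bearing FPKM was 1.498 ± 0.0769 in kidney and 0.752 ± 0.138 in spleen and marrow (SD, n = 3 each). With Clec4n and Clec4d left out of the sum the ratio was 0.543 ± 0.0549 in kidney and 0.566 ± 0.112 in spleen and marrow, with overlapping ranges. Clec4n and Clec4d made up 63.5% ± 5.43 of activating FPKM in kidney and 24.8% ± 1.18 in spleen and marrow.

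**Figure D3:**
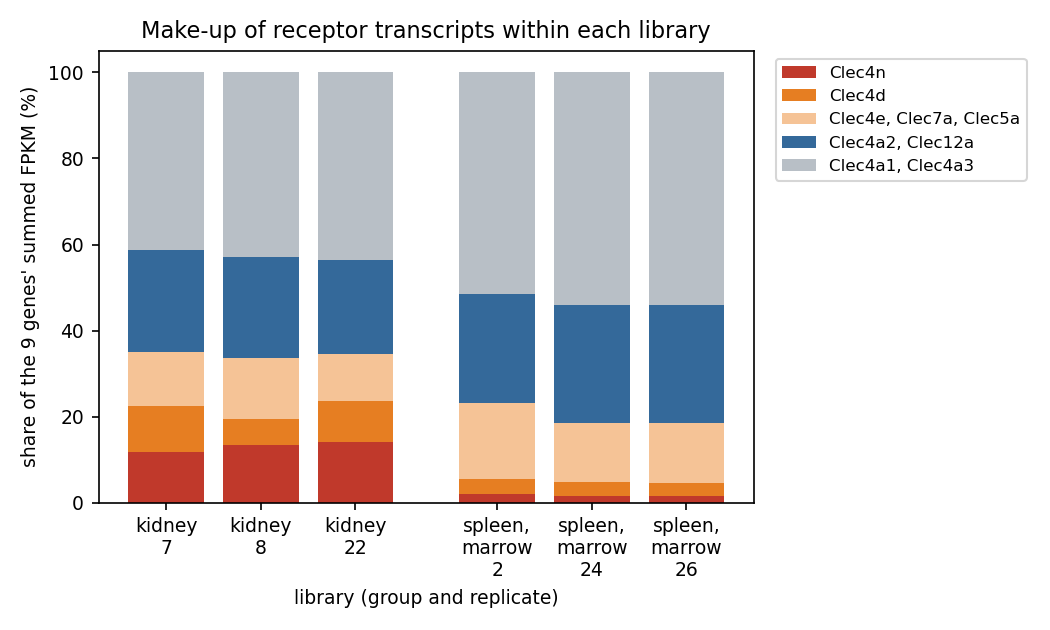
Share (%) of the summed FPKM of the 9 genes in each library, kidney bars left of spleen and marrow bars. Clec4n takes 11.7% to 14.2% in kidney and 1.62% to 2.17% in spleen and marrow, and Clec4d takes 6.07% to 10.8% in kidney and 2.90% to 3.32% in spleen and marrow.

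Across the Dectin-2 cluster the fold change did not follow position evenly. The stretch begins after C3ar1, the receptor gene for the complement peptide C3a, which was higher in kidney by 6.52 ± 0.24 on the log2 scale (SE, edgeR adjusted p = 1.59e-05), and Necap1, an endocytosis gene, at 0.86 ± 0.35 (edgeR adjusted p = 0.160). Clec4a1, Clec4a3, Clec4a4, Clec4b1, Clec4a2, Clec4b2, Clec4n, Clec4d and Clec4e follow in that order. Clec4b1, which encodes the activating receptor DCAR, had 41.6, 90.9 and 71.4 CPM in kidney replicates 7, 8 and 22, against 33.3, 32.6 and 31.3 CPM in spleen and marrow replicates 2, 24 and 26. It rose by a log2 fold of 1.07 ± 0.28 (edgeR adjusted p = 0.0439), but the adjusted p was 0.107 to 0.178 when kidney replicate 8 or 1 library of spleen and marrow was left out, and 0.00788 to 0.178 over all alternatives. Clec4b2, directly before Clec4n, had 3 counts in kidney and 48 in spleen and marrow, a ratio of 0.0802 (95% exact binomial interval 0.0160 to 0.249, counting error only). That interval takes reads as independent and leaves out the spread between libraries. In the test between libraries its log2 fold change of -3.54 ± 1.04 (SE) was not called (edgeR adjusted p = 0.0614, DESeq2 0.0533, limma-voom 0.0405).

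Sequence sharing limits some of these values. Of the 50-base stretches in GENCODE transcripts of Clec4a2, 6.15% occur exactly in a transcript of another of the 9 genes or of Clec4a4, Clec4b1 and Clec4b2, mostly of Clec4a4, and for the other 8 genes the share was 0. Clec4a4, the gene of a further DCIR receptor, had 0.881 CPM but 11.9 FPKM in kidney replicate 22, and 1.26 CPM but 11.7 FPKM in spleen and marrow replicate 2. The count and FPKM tables thus differ for Clec4a4, and its values, and those of Clec4a2 over the shared stretches, are uncertain. The library chemistry does not mark strand, so antisense reads would be counted in.

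**Figure D4:**
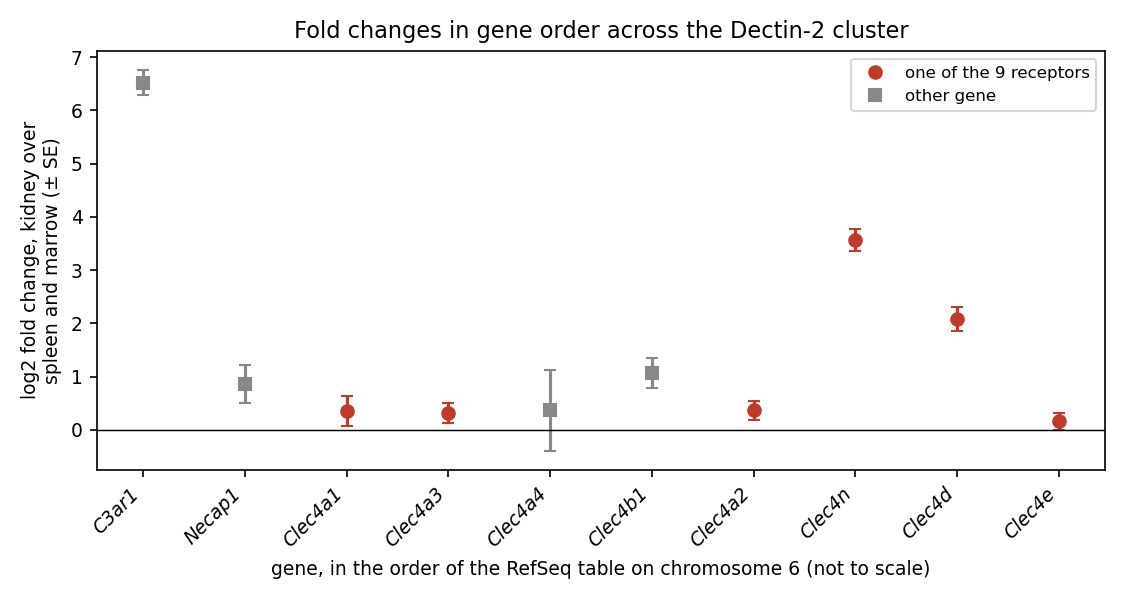
The log2 fold change ± SE, kidney over spleen and marrow, of tested genes in their chromosome order from C3ar1 to Clec4e, without Clec4b2, which had 3 counts in kidney. Clec4n and Clec4d lie at 3.57 and 2.08, beside Clec4e at 0.16.

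The genes whose profile over the 6 libraries was closest to each receptor were found by the root mean square difference of mean-centred log2 CPM, among 5078 other genes whose mean log2 CPM was 4 or more. Ms4a7, a membrane protein gene of macrophages, was nearest to Clec4n, at 0.152, with 178, 291 and 282 CPM in kidney replicates 7, 8 and 22, against 21.1, 15.0 and 21.97 CPM in spleen and marrow replicates 2, 24 and 26. Rab3il1, which encodes an exchange factor for Rab GTPases, was next to it at 0.295. For Clec4d the nearest were Slc15a3, a lysosomal peptide and histidine transporter gene, at 0.141, and Ski, a transcriptional co-repressor gene, at 0.170. Clec4n and Clec4d were 0.824 apart from each other, farther than from these genes. Among the receptors, Clec7a and Clec12a were the closest, at 0.0998, followed by Clec12a and Clec4a3 at 0.107. Clec5a was nearest to Ctsz, at 0.0530, and Clec4e to Nars, at 0.0653. These are descriptions over 6 libraries that fall into 2 groups.

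None of the tested genes for adaptors, kinases and the CARD9 complex that serve the activating receptors was called. Of 26 signalling genes 24 were tested and edgeR called 0, beside 7.83% higher and 5.9% lower over all genes tested. Their median log2 fold change was -0.01, against 0.05 over all genes tested. A gene not called may still differ, since on simulated counts the test missed most of the smallest changes. At an unadjusted p under 0.05, 3 were higher in kidney (Fcer1g, Vav1 and Nfatc2), and DESeq2 and limma-voom called 0 each. Vav1 and Nfatc2 were named after their values were seen, as were Syk and Card9. All gene lists, here and below, were also chosen with earlier results of these data known. Their calls and p-values are therefore a description. Fcer1g, the adaptor of Dectin-2, MCL and Mincle, had 7227, 7210 and 7292 CPM in kidney replicates 7, 8 and 22, against 5727, 6129 and 6528 CPM in spleen and marrow replicates 2, 24 and 26. Its kidney values lay above the others by 0.24 ± 0.10 on the log2 scale, which was not called (SE, edgeR adjusted p = 0.168). Tyrobp, the adaptor of MDL-1, stood at -0.09 ± 0.12 (edgeR adjusted p = 0.663) and the SRC-family kinase gene Lyn at -0.11 ± 0.18 (edgeR adjusted p = 0.739). Syk had 82.7, 62.8 and 47.0 CPM in kidney replicates 7, 8 and 22, against 62.7, 72.4 and 63.1 CPM in spleen and marrow replicates 2, 24 and 26, and its groups overlapped. Card9, the gene of the CARD9 adaptor itself, stood at -0.32 ± 0.33 (edgeR adjusted p = 0.581). Without kidney replicate 8, edgeR called 1 signalling gene, Vav1, higher.

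Of 8 genes for inhibitory phosphatases and adaptors, all tested, 1 rose and 0 fell, where 7.83% of all genes tested were called higher and 5.9% lower. Their median log2 fold change was 0.46, against 0.05 over all genes tested. Dok2, an adaptor that dampens kinase signalling in myeloid cells, had 64.1, 58.4 and 76.9 CPM in kidney replicates 7, 8 and 22, against 11.3, 9.58 and 8.47 CPM in spleen and marrow replicates 2, 24 and 26. The groups lay far apart, and Dok2 rose by 2.76 ± 0.22 on the log2 scale (SE, edgeR adjusted p = 0.000634, at most 0.0103 on leaving out any 1 library). Its relative Dok3 stood at -0.08 ± 0.18 (edgeR adjusted p = 0.805). Ptpn6, the phosphatase that ITIMs recruit, stood at -0.08 ± 0.14 (edgeR adjusted p = 0.758). Inpp5d, which encodes the lipid phosphatase SHIP1, had 116, 68.7 and 64.0 CPM in kidney replicates 7, 8 and 22, against 37.2, 59.8 and 35.9 CPM in spleen and marrow replicates 2, 24 and 26. Its log2 fold change of 0.91 ± 0.30 missed the threshold (edgeR adjusted p = 0.0888), but passed in DESeq2 (adjusted p = 0.0299) and in edgeR without kidney replicate 22 (adjusted p = 0.0370), and its adjusted p spanned 0.0299 to 0.305 over all alternatives.

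Of 21 genes listed as targets of CARD9 and NF-kB signalling, 13 were tested, 3 rose and 0 fell, beside 7.83% higher and 5.9% lower over all genes tested. Their median log2 fold change was 0.47, against 0.05 over all genes tested. The list was not checked against these routes, and Egr1 and Egr2, which are among the 3 that rose, need not be induced through CARD9 or NF-kB. Il1b, the cytokine IL-1 beta, had 579, 933 and 547 CPM in kidney replicates 7, 8 and 22, against 105, 51.0 and 50.7 CPM in spleen and marrow replicates 2, 24 and 26. It rose by 3.32 ± 0.36 on the log2 scale (SE, edgeR adjusted p = 0.00149), and no library of one group overlapped the other. Egr1, an immediate early transcription factor, rose by a log2 fold of 1.87 ± 0.28 (edgeR adjusted p = 0.00564). Egr2, of the same family, rose by 4.11 ± 0.83 (edgeR adjusted p = 0.0166), with 80 counts in kidney and 6 in spleen and marrow, and its adjusted p was 0.0764 to 0.113 when 1 library of spleen and marrow was left out, and 0.000199 to 0.113 over all alternatives. Ccl4, a chemokine gene named after its values were seen, had 215, 995 and 262 CPM in kidney replicates 7, 8 and 22, against 160, 88.8 and 105 CPM in spleen and marrow replicates 2, 24 and 26. Its groups lay apart, and its log2 fold change of 2.06 ± 0.58 missed the threshold in edgeR (adjusted p = 0.0538) and limma-voom (adjusted p = 0.0675) but passed in DESeq2 (adjusted p = 0.0304). Il1a, the gene of IL-1 alpha and likewise named after its values were seen, also lay apart, at 3.68 ± 1.24 (edgeR adjusted p = 0.0927, DESeq2 0.0245, limma-voom 0.0219). Il1a had 215 counts in kidney and 22 in spleen and marrow, where replicates 24 and 26 were at 0 CPM. The 3 uncalled targets of highest mean CPM over the 6 libraries overlapped between the groups. Ccl3 stood at 0.01 ± 0.27 (edgeR adjusted p = 0.989), Nfkbia, the inhibitor of NF-kB, at -0.49 ± 0.40 (edgeR adjusted p = 0.475) and Cxcl2 at -0.27 ± 0.81 (edgeR adjusted p = 0.867). Cxcl2 had 166, 544 and 152 CPM in kidney replicates 7, 8 and 22, against 800, 127 and 115 CPM in spleen and marrow replicates 2, 24 and 26, and 1 library in each group was high.

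**Figure D5:**
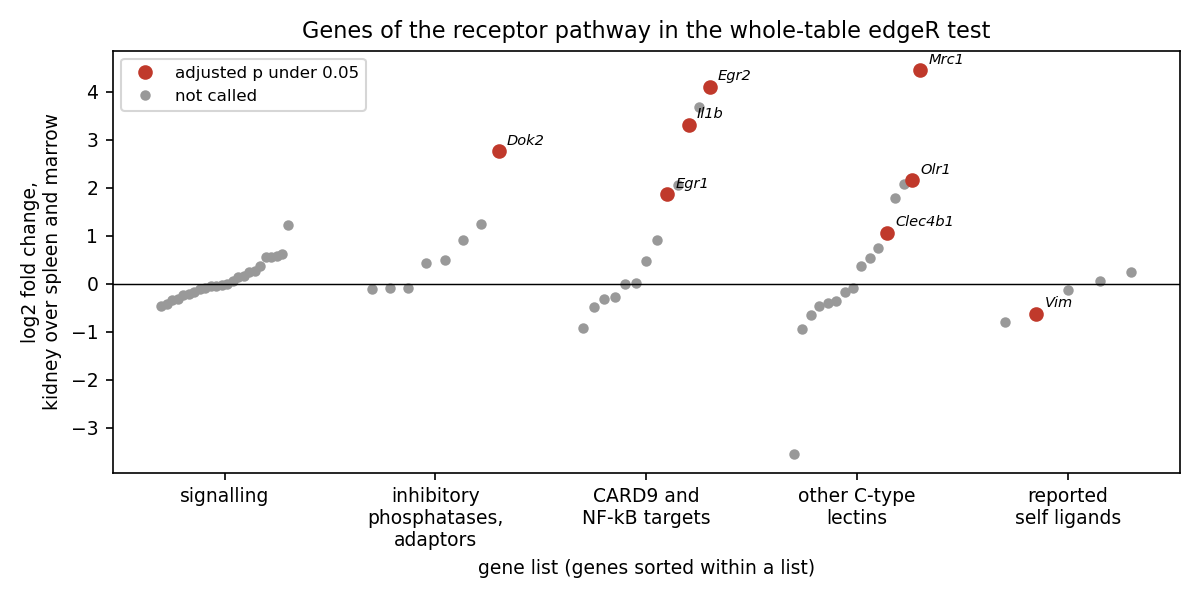
The log2 fold change, kidney over spleen and marrow, of the tested genes of 5 lists, without 1 gene of the other C-type lectins that is not reported, with genes of edgeR adjusted p under 0.05 in red and named. No signalling gene is called, whereas Dok2 (2.76), Il1b (3.32) and Mrc1 (4.46) lie above 0.

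Of 27 other C-type lectin genes 17 were tested, 3 rose and 1 fell, beside 7.83% higher and 5.9% lower over all genes tested. Their median log2 fold change was -0.08, against 0.05 over all genes tested. Mrc1, the mannose receptor of macrophages, rose by a log2 fold of 4.46 ± 0.45 (SE, edgeR adjusted p = 0.00117). Olr1, a receptor for oxidised LDL in the Dectin-1 cluster, rose by 2.17 ± 0.56 (edgeR adjusted p = 0.0399). Its adjusted p was 0.0580 to 0.172 when kidney replicate 8 or 1 library of spleen and marrow was left out, and 0.00383 to 0.172 over all alternatives. The third that rose was Clec4b1. Cd302, at -0.08 ± 0.11 (edgeR adjusted p = 0.716), Cd93 (0.53 ± 0.27, edgeR adjusted p = 0.255) and Clec10a (-0.94 ± 0.66, edgeR adjusted p = 0.398) were the most abundant of those not called.

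Genes of reported self ligands were also read from the same test. Of 5 tested, 0 rose and 1 fell, beside 7.83% higher and 5.9% lower over all genes tested. Their median log2 fold change was -0.13, against 0.05 over all genes tested. Vim, whose product vimentin has been reported to bind Dectin-1, fell to 752 ± 71.2 CPM in kidney, against 1154 ± 23.2 CPM in spleen and marrow (SD, n = 3 each). On the log2 scale Vim stood at -0.62 ± 0.12 (SE, edgeR adjusted p = 0.0140). That adjusted p was 0.0636 and 0.0798 when spleen and marrow replicates 24 and 26 were left out in turn, and 6.2e-06 to 0.0798 over all alternatives. Anxa1, an annexin that also binds Dectin-1, stood at -0.80 ± 0.32 (edgeR adjusted p = 0.154, but 0.0026 when kidney replicate 22 was left out and 0.0026 to 0.331 over all alternatives). Anxa5 (-0.13 ± 0.16, edgeR adjusted p = 0.665) and Lgals9 (0.25 ± 0.21, edgeR adjusted p = 0.482) were not called.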

How the data were processed

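The deposited raw counts are whole numbers per gene symbol, and the deposited FPKM values were made by the authors. The tools listed per the submitters' processing notes are STAR 2.5, Cufflinks 2.2.1 and bcl2fastq 2.18, and the build is mm9. Which program counted reads, and on which annotation, is not given in the sources used here. Per the labels' protocols, SMART-Seq v4 cDNA from 2 ng of RNA was sheared to about 150 bp for ThruPLEX libraries.

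Counts were filtered with filterByExpr, scaled with TMM and tested with edgeR 4.0.16 (quasi-likelihood F test, two-sided, R 4.3.3) on all 10626 genes, with Benjamini-Hochberg adjusted p-values under 0.05 as calls. A called gene of the other C-type lectin list is counted but not reported here. SE values are absolute log2 fold changes over the root of the F statistic. On simulated counts the test missed most of the smallest changes and called most of the larger ones, so a gene that was not called may still differ. The genes, their classes and the lists were chosen with earlier results of these data known. Named list genes are up to 6 calls per direction by smallest p and the 3 most abundant uncalled genes of each list; the 2 nearest profiles per receptor were also found by rule, of which those quoted are a part. Alternatives were DESeq2 1.42.0, other scalings, no filter, limma-voom and limma-trend (limma 3.58.1) on log2(FPKM + 1) or log2(FPKM + 0.1) for genes with a mean FPKM of at least 1, and leaving out each replicate. Summing spleen and marrow replicates 24 and 26 was added after seeing the data, as were all alternatives for the ligand list. Those replicates were not identical but were far more alike than any other pair within a group. Their chi-square over degrees of freedom was 2.86, against 22.2 to 59.7 for other pairs. Whether they share animals or a pool is not stated. They were counted as 2 samples, and every p-value of the main test rests on that choice. Promoters are RefSeq's (GRCm38.p6), the first start of each gene; transcripts are GENCODE's. Reads carry no molecular identifiers, so amplified copies are counted as separate reads. The binomial interval takes reads as independent and may be too narrow even for counting error. Figures were drawn with matplotlib 3.10.9.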

Additional observations from a re-analysis of the deposited data

How the results depend on the processing

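No paired analysis was possible because the groups share no replicate number. Log2 fold changes of the 9 receptor genes moved by less than the replicate spread under every alternative run, except Clec4n, at 3.26 on log2(FPKM + 1), where the median of all genes was -0.14 against 0.05 in edgeR (0.18 without a filter). The medians of the activating and ITIM-bearing genes ranged from 0.35 to 0.76 and from 0.24 to 0.47 on leaving out a replicate. The log2 difference of the activating to ITIM ratio, 1.01 in FPKM, was 0.52 in CPM, which is not per length, and 0.93 to 1.16 on leaving out a replicate. Depth was lowest in kidney replicate 22, where 3 counts correspond to 0.881 CPM.

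Over all genes tested edgeR called 832 higher and 627 lower in kidney. Limma-trend called 367 higher and 556 lower on log2(FPKM + 1), and 406 higher and 529 lower on log2(FPKM + 0.1), limma-voom called 737 higher and 838 lower, DESeq2 called 1164 higher and 995 lower, and summing spleen and marrow replicates 24 and 26 gave 299 higher and 201 lower. Leaving out a replicate gave 260 to 1569 higher and 179 to 1215 lower, in each case the most without kidney replicate 22 and the fewest without spleen and marrow replicate 26. Leaving out a replicate also gave 0 to 1 signalling genes higher, 1 to 3 inhibitory genes higher, 2 to 5 targets higher, 1 to 4 other lectins higher and 1 to 3 lower, and 0 to 2 ligand genes lower. DESeq2 called 2 inhibitory genes and 5 targets higher, and edgeR without a filter called 5 targets higher. Of the other lectins, limma-voom called 1 higher and 2 lower, and summing replicates 24 and 26 left 1 higher. Limma-trend called 0 higher on either FPKM scale. Its 13 tested genes did not include Mrc1 and Olr1, whose mean FPKM was under 1. Of the ligand genes, limma-voom called 2 lower and the summed library 0. The causes of these shifts were not tested.

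Among uncalled genes, Ccl3 changed sign: -0.0045 in DESeq2 and likewise in edgeR with its size factors, -0.04 without a filter, -0.05 with limma-voom, -0.19 on either FPKM scale, -0.08 with replicates 24 and 26 summed, and between -0.34 and 0.23 on leaving out a replicate. Cxcl2 was 0.13 with limma-voom and between -1.14 and 1.24 on leaving out a replicate. Dok3 ranged from -0.21 to 0.04, Nfkbia from -0.81 to 0.09 and Lgals9 from -0.0015 to 0.37 on leaving out a replicate.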
